A study of Mus musculus with 12 samples.

Results

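The genes described here are those that encode the proteins of the cytosolic ribosome, measured by RNA sequencing in tumors grown from CT-26 cells in mice that swam or did not swim. They were chosen by name: every protein-coding gene whose symbol starts with Rpl or Rps and a digit, together with Rplp0, Rplp1, Rplp2 and Rpsa, without pseudogene symbols and without the S6 kinases. The rule found 86 symbols in the annotation, of which 85 were listed among the 30630 genes of the tables. These were 43 core genes of the large subunit, 31 core genes of the small subunit, 3 genes of the stalk, 7 paralogs of core genes (Rpl3l, Rpl7l1, Rpl22l1, Rpl36al, Rpl39l, Rps27l and Rps27rt) and Rps19bp1, which encodes a binding partner of Rps19 and no ribosomal protein. No measured value entered the rule.

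CT-26 cells are an established line of mouse colon carcinoma, of BALB/c origin. Cells in Matrigel were injected under the skin of the right flank of male BALB/c mice that were 4 to 6 weeks old when purchased, so every tumor carried the same line and none grew in the bowel. The swimming group trained for 3 weeks, in 2 sessions per day on 6 days per week, with sessions lengthened stepwise to 30 min, and the control group did not train. Of the 10 mice in each group, 6 tumors per group had an expression table, each labelled as a tumor of its own, and the numbers 1 to 6 name tumors of different mice. The comparison addresses how gene expression in the tumor differed between mice that swam and mice that did not. The values are FPKM, that is fragment counts scaled to transcript length and library depth, made from libraries depleted of ribosomal RNA.

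The 12 tables summed to between 380139 and 407109 FPKM and had between 22293 and 23974 genes above 0. FPKM keep no absolute depth, but the steps between low values put the depth of control 2 at 0.694 of that of control 1, and of the other tumors at between 0.871 and 0.973 of it. Each table came from a piece of tissue with host cells in it. Skeletal muscle markers (14 genes) summed to between 3.5 and 245 FPKM in control tumors and between 2.67 and 343 FPKM in the swimming group, with none of the 13 tested past the test. T cell markers summed to between 3.91 and 9.72 FPKM in control tumors and between 6.99 and 18.6 FPKM in the swimming group. Of these 7 markers, 5 were higher in the swimming group at an unadjusted limma p below 0.05, against 3.11% of all genes tested. None of the 7 passed after Benjamini-Hochberg adjustment. None of the tested markers of fibroblasts, adipocytes, endothelial cells, macrophages, B cells, erythroid cells or epithelium passed the unadjusted threshold. Among the epithelial markers Krt20 lay between 99.8 and 194 FPKM, whereas Epcam was at most 0.177 FPKM and was listed at 0 in 5 tumors.

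A ribosome consists of a small subunit that reads the mRNA and a large subunit that joins amino acids. Each is built from ribosomal RNA and a fixed set of proteins, most of them needed in equal numbers. The mRNAs of these proteins belong to the most abundant of a dividing cell, and in mammals they start with a run of pyrimidines, the 5′ terminal oligopyrimidine (TOP) tract, through which mTOR and Larp1 control their translation. Their genes have also been copied back into the genome many times from mRNA, which leaves processed pseudogenes with nearly the same sequence.

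Pyrimidine tracts were searched for in the RefSeq promoter windows of GRCm38.p6, which held 65 of the 85 genes. A C followed by at least 4 C or T, starting within 20 bases of the annotated start, was present in 52 of the 65 (80.0%) against 52.6% of all 27025 symbols with a window, and a C followed by at least 6 C or T in 37 (56.9%) against 23.6%. The letters CCGGAAG, searched on both strands of the 300 bases, were present in 26 (40.0%) against 9.93% of all symbols and 37.7% of the 69 mitochondrial ribosomal protein genes with a window. For CACGTG (9.23% against 8.09%) and for TATAA on both strands (27.7% against 28.0%) the shares were close to those of all symbols. A match is a description of letters and does not show a site in use. The windows below show how the tracts look in genes to which the results return. The tract is in capitals, and the position of its first base relative to the annotated start and its length follow.
Rpl7a, chr2:26910787-26910816, plus strand, tract at -12, 19 bases: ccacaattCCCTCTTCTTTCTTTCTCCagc
Rpl35a, chr16:33056469-33056498, plus strand, tract at -5, 13 bases: ggggcttgCCTTCCTCTTTCCgccatcttg
Rplp2, chr7:141447639-141447668, plus strand, tract at -4, 9 bases: gtcagcgtCTTCCTTTCgccgccggacgcc
Rps27, chr3:90213629-90213658, minus strand, tract at -2, 9 bases: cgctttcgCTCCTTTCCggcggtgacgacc
Rps18, chr17:33955646-33955675, minus strand, tract at -2, 11 bases: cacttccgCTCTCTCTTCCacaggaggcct

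The 85 genes were among the most abundant of the tumors and held 13.8% ± 0.531 (SD, n = 6) of all FPKM in control tumors and 13.4% ± 1.01 in the swimming group. Their median level was 447 FPKM, against 3.36 FPKM over the 19018 genes tested, and 36 of them ranked among the 100 genes of highest mean. All 85 passed the filter of 0.1 FPKM in at least 6 tumors. The level differed widely between genes: 15 exceeded 1000 FPKM and 9 lay below 50 FPKM. The highest was Rplp1, one of the acidic stalk proteins that bring elongation factors to the ribosome, at a mean of 4811 FPKM, which was rank 2 among all genes. Rpl36 of the large subunit followed at 2340 FPKM and Rps3a1 of the small subunit at 2121 FPKM. The lowest were Rpl3l, the paralog of Rpl3 known from striated muscle, at 0.198 FPKM, and the core genes Rpl21 at 2.18 FPKM and Rpl29 at 4.77 FPKM.

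Between tumors the levels moved little. The SD of log2(FPKM + 1) over the 12 tumors had a median of 0.14 and was below 0.2 in 69 of the 85 genes, and the median was also 0.14 over the 437 other genes above 100 FPKM. The SD ranged from 0.075 in Rpl7l1 to 0.80 in Rpl17. The first principal component held 40.7% of their summed variance. Genes of large spread such as Rpl17 weigh most in that share, so it does not show how many genes moved together. In single tumors, however, many of the genes stood on the same side. Tumor swimming 5 was the lowest of the 12 in 58 of the 85 genes, whereas it was the lowest in 7.49% of all genes tested. Control 5 was the highest in 34 genes and swimming 6 in 28, against 7.40% and 7.15% of all genes tested. The median deviation of the 85 genes from their own means was -0.24 in swimming 5, 0.17 in control 5 and 0.11 in swimming 6 on the log2 scale, and lay between -0.062 and 0.076 in the 9 remaining tumors.

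**Figure D1:**
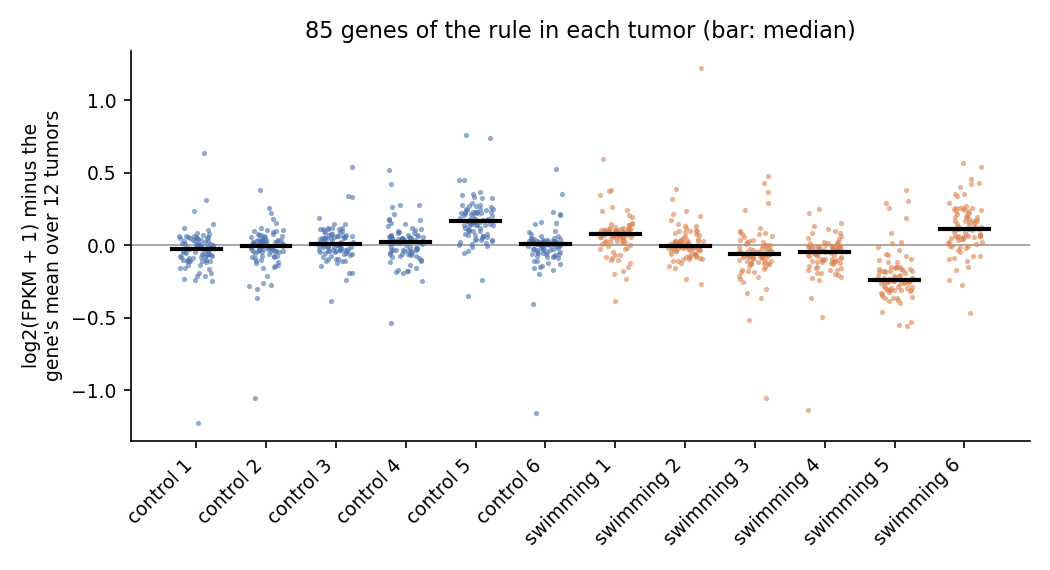
Deviation of each of the 85 genes from its own mean over the 12 tumors, on the log2(FPKM + 1) scale, by tumor; points are genes, black bars are medians, blue is control and orange is swimming. The median bar is lowest in swimming 5 (-0.24) and highest in control 5 (0.17) and swimming 6 (0.11).

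The same tumors stood apart in the summed level. The members held 11.9% of all FPKM in swimming 5, 14.8% in control 5 and 14.6% in swimming 6, with the 9 remaining tumors between 12.9% and 14.3%. The highest and the lowest swimming tumor enclosed every control tumor but control 5. The skeletal muscle markers summed to 343 FPKM in swimming 5, the most of all tumors, and to 3.5 FPKM in control 5 and 2.67 FPKM in swimming 6, the least of all tumors. Control 6 had 245 FPKM of muscle markers with a member share of 13.7% and a median deviation of 0.0064. Swimming 3 had 233 FPKM with a member share of 13.1% and a median deviation of -0.062. Swimming 5 also had the highest sums of macrophage markers (984 FPKM) and T cell markers (18.6 FPKM). Its fibroblast markers (782 FPKM) were exceeded only in control 1 (809 FPKM), which had the lowest member share of the control tumors (13.2%). The part of these cells in the levels was not tested. A lower share of cells rich in these mRNAs and less of these mRNAs per cell cannot be told apart in bulk tissue. Genes of short and long coding sequence did not move alike in every tumor. For the 20 members with the shortest coding sequences, up to 345 bases, the median deviation was -0.23 in swimming 5 and 0.25 in swimming 6, and for the 20 with the longest, 642 bases or more, it was -0.18 and 0.061. In swimming 1 the order was the other way, with 0.028 for the short and 0.091 for the long.

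**Figure D2:**
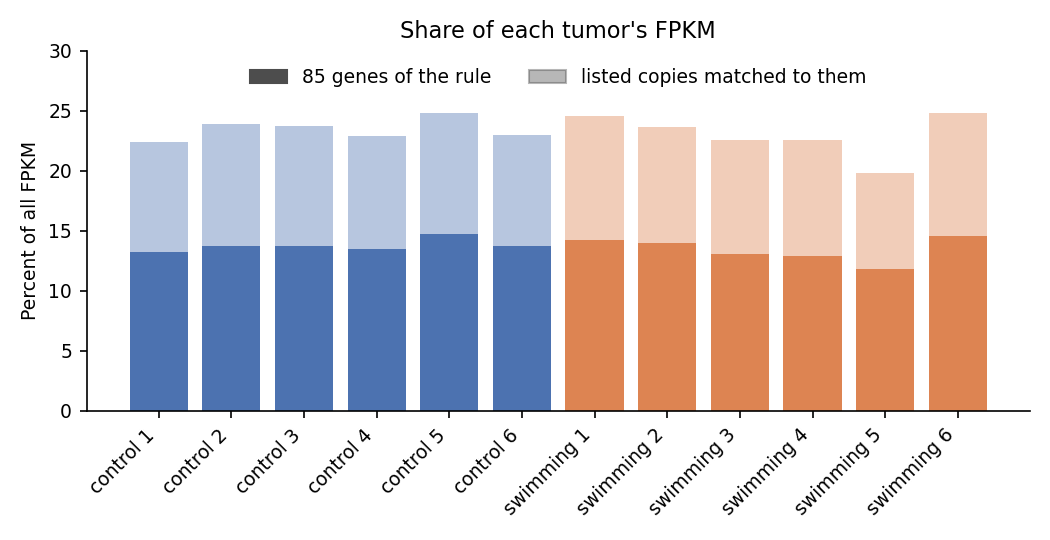
Percent of all FPKM in each tumor held by the 85 genes (solid) and by the listed copies matched to their coding sequences (pale); blue is control and orange is swimming. The solid bars run from 11.9% in swimming 5 to 14.8% in control 5, and both groups span most of that range.

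Between the groups, the genes of the cytosolic ribosome differed by little. On the log2(FPKM + 1) scale the difference, swimming minus control, had a median of -0.048 over the 85 genes, against 0.0039 over all genes tested, and its size was below 0.2 in 79 of them. It was below 0 in 64 of the 85 genes, against 48.3% of all genes tested. That direction rested on single tumors, since without swimming 5 it was below 0 in 44 genes and above 0 in 41, with a median of -0.0055, and without control 5 in 54 and 31. The median was -0.043 over the large subunit, -0.051 over the small subunit, -0.10 over the 3 stalk genes and -0.089 over the 7 paralogs. No gene of the 85 changed past a fold of 2 with an unadjusted limma p below 0.05, where 0.105% of all genes tested did.

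At an unadjusted limma p below 0.05, 1 of the 85 genes was higher in the swimming group, against 3.11% of all genes tested, and 3 were lower, against 2.46%. Together these 4 were 4.71% of the members, near the 5.56% of all genes that passed in either direction. After Benjamini-Hochberg adjustment over the 19018 genes no member and no other gene passed 0.05 in limma, and the smallest adjusted p of a member was 0.889. In no member did the 6 swimming tumors lie apart from the 6 control tumors without overlap, as they did in 0.147% of all genes tested (0.0789% higher and 0.0684% lower in the swimming group). Without control 5 there were 2 genes higher and 1 lower, without control 4 1 lower, without swimming 4 2 higher, and without swimming 6 5 lower.

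**Figure D3:**
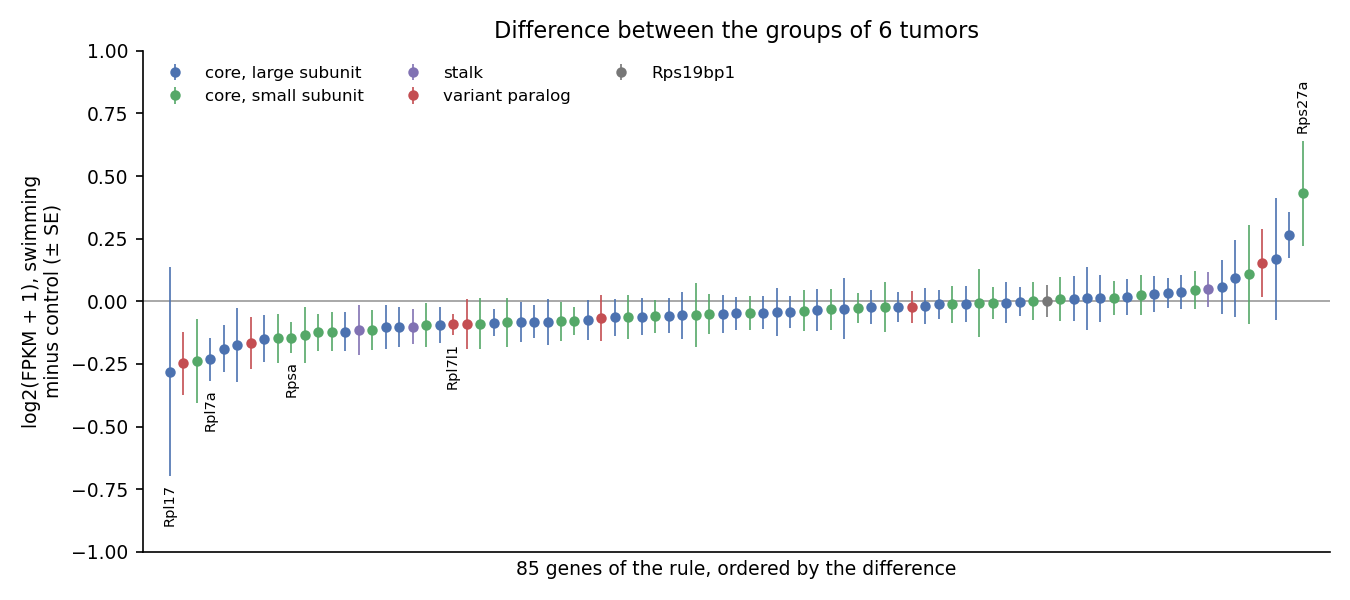
Difference in mean log2(FPKM + 1), swimming minus control, for each of the 85 genes, ordered by size; points are the differences, bars are standard errors of the limma fit, and colors mark the subunit or class. Most points lie within 0.2 of 0, and the named genes are the 3 lower at an unadjusted p below 0.05 and the genes at both ends.

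Rpl7a, a core protein of the large subunit (chromosome 2, 26910764 to 26913318, GRCm38), was lower in the swimming group. It was at 219, 294, 207, 230, 263 and 264 FPKM in control tumors 1 to 6 and at 225, 192, 222, 224, 203 and 186 FPKM in swimming tumors 1 to 6. Every swimming tumor lay below the control median of 247 FPKM, but controls 1 and 3 lay within the swimming range. The means were 246 ± 32.8 and 209 ± 17.2 FPKM, a log2 difference of -0.23 (SE 0.087; limma p = 0.0197, adjusted p = 0.889; two-sided exact permutation p = 0.0325). With its 54 listed copies summed to it, the difference turned to 0.088, as described with the copies.

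Rpsa, a small subunit protein also known as a precursor of the laminin receptor (chromosome 9, 120127689 to 120132369), was lower as well. The lowest, median and highest control tumors were at 737, 777 and 789 FPKM, and those of the swimming group at 623, 716 and 771 FPKM. Swimming 1 and swimming 5 were the lowest, and swimming 2 alone lay within the control range. The means were 770 ± 20 and 699 ± 56.9 FPKM, a log2 difference of -0.14 (SE 0.062; limma p = 0.0354, adjusted p = 0.889; two-sided exact permutation p = 0.0108). The unadjusted p stayed below 0.05 in 14 of the 23 alternatives tried. It exceeded 0.05 without control 1, 3, 4, 5 or 6 and without swimming 1 or 5, and reached 0.0866 without swimming 1. The fit with tumors blocked by their number also put it above 0.05, and not every alternative that did so is named here. The largest limma p over all alternatives was 0.0943.

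Rpl7l1, a paralog of Rpl7 that acts in the making of the large subunit (chromosome 17, 46773907 to 46782672), showed the smallest of these differences. Its lowest, median and highest levels were 46.8, 48.5 and 53.9 FPKM in control tumors and 44.8, 45.8 and 48.7 FPKM in the swimming group, so 4 swimming tumors lay below every control tumor. The means were 49.5 ± 2.65 and 46.3 ± 1.39 FPKM, a log2 difference of -0.092 (SE 0.043; limma p = 0.0499, adjusted p = 0.889; two-sided exact permutation p = 0.0173). It passed in 9 of the 23 alternatives, and the limma p exceeded 0.05 without control 2, 4 or 5 and without swimming 1, 2, 3, 4 or 6, up to 0.116 without control 5. The p also exceeded 0.05 under some of the alternatives that kept every tumor. Rpl7 itself was at 540 ± 34.5 and 532 ± 47.3 FPKM.

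**Figure D4:**
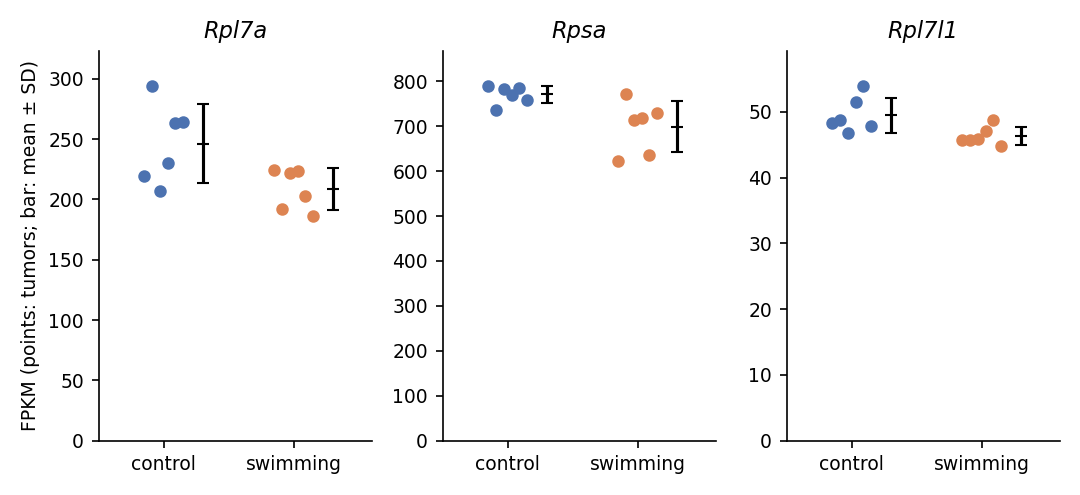
FPKM in each tumor of the 3 genes that were lower in the swimming group at an unadjusted limma p below 0.05; points are tumors, black bars are the mean ± SD of 6 tumors, and the axes start at 0. Rpl7a, Rpsa and Rpl7l1 are lower in the swimming group, and the groups overlap in every panel.

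The stalk genes did not pass the test. Rplp0, the scaffold of the stalk, was at 1178 ± 80.4 FPKM in control tumors and 1098 ± 75.1 FPKM in the swimming group. Rplp1 was at 4996 ± 413 and 4627 ± 502 FPKM, with its lowest tumor, 3800 FPKM, in swimming 5. Rplp2, the other acidic stalk protein, was at 415 ± 29.7 and 430 ± 38.6 FPKM. Their log2 differences were -0.10 (SE 0.069), -0.11 (SE 0.10) and 0.047 (SE 0.070), each with an adjusted limma p above 0.9.

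Rps27a had the largest difference upward. The gene encodes ubiquitin joined to a small subunit protein, and the ubiquitin is released after translation. It was at 231, 111, 177, 226, 268 and 228 FPKM in control tumors 1 to 6 and at 303, 304, 300, 164, 265 and 318 FPKM in swimming tumors 1 to 6. Swimming 4 was far below the other swimming tumors and control 2 the lowest of all. The log2 difference was 0.43 (SE 0.21; limma p = 0.0617; two-sided exact permutation p = 0.106), which did not pass. Without swimming 4 it was 0.57 with a limma p of 0.00921, and without control 5 it was 0.52 with a limma p of 0.0337.

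Rpl35a, Rpl3 and some genes of high level are further cases that did not reach the threshold. Rpl35a, of the large subunit, had lowest, median and highest levels of 15.5, 16.1 and 19.0 FPKM in control tumors and of 10.5, 15.4 and 16.5 FPKM in swimming tumors, a log2 difference of -0.19 (SE 0.095; two-sided exact permutation p = 0.0758), with swimming 3 the lowest of all. Rpl36 was at 2327 ± 139 and 2354 ± 274 FPKM and Rps3a1 at 2100.5 ± 121 and 2141 ± 190.0 FPKM, differences of 0.010 (SE 0.089) and 0.025 (SE 0.080). Rps4x, the X-linked small subunit gene, was at 1296 ± 101 and 1226 ± 178 FPKM, a difference of -0.089 (SE 0.10), with its lowest level, 966 FPKM, in swimming 5. Rpl3, which lies near the peptidyl transferase center, was at 312 ± 26.0 and 283 ± 41.2 FPKM, a difference of -0.15 (SE 0.093), and again swimming 5 was lowest at 226 FPKM. None of the 5 passed. With listed copies summed to each gene, the differences were -0.034 for Rpl35a, 0.0080 for Rpl36, -0.043 for Rps3a1, -0.085 for Rps4x and -0.049 for Rpl3.

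Of the paralogs beside Rpl7l1 none passed the test. Rps27rt, a retrogene with the coding sequence of Rps27, was at 366 ± 63.4 and 306 ± 43.8 FPKM, a log2 difference of -0.25 (SE 0.13; two-sided exact permutation p = 0.104). Over 24 settings, which include the main fit, its difference ran from -0.34 to -0.18. Its limma p was below 0.05 in 3 of them, down to 0.00518. Rps27 and Rps27rt summed to 1196 ± 156 and 1143 ± 225 FPKM, and since their 252 coding bases are identical, reads from the coding part cannot tell both genes apart. Rpl22l1 was at 102% ± 11.2 of Rpl22 in control tumors and 88.4% ± 15.3 in the swimming group. Rpl36al was at 55.4% ± 6.59 and 56.0% ± 4.31 of Rpl36a, Rpl39l at 26.1% ± 2.43 and 25.2% ± 3.62 of Rpl39, and Rps27l, a target of p53, at 19.2% ± 1.96 and 18.7% ± 4.05 of Rps27. Rpl3l was highest in swimming 3 (0.640 FPKM), swimming 5 (0.533 FPKM) and control 6 (0.506 FPKM), and was listed at 0 in 4 tumors. Those 3 high tumors were also the 3 with the highest sum of skeletal muscle markers, at 233, 343 and 245 FPKM in that order, and the part of muscle in the Rpl3l values was not tested. The coding sequences of Rps27 and Rps27l, aligned from coding base 10 to 69 of Rps27, show how far a distinct paralog departs from its core gene, with the 19 differing bases in capitals.
Rps27, chr3:90212522-90213651, minus strand: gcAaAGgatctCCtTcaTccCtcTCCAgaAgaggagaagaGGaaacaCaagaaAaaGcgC
Rps27l, chr9:66946086-66949516, plus strand: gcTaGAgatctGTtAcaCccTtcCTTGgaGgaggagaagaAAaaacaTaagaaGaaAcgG

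Several core genes held only a small part of the FPKM listed for themselves and their near-identical copies. Matching of the listed genes to the coding sequences of the members, at 90% identity or more over 70% of the sequence or more, found 733 copies, of which 716 were annotated as pseudogenes, and 276 had a mean above 1 FPKM. The copies summed to 9.69% ± 0.436 of all FPKM in control tumors and 9.54% ± 0.863 in the swimming group. Copies were found for 75 of the 85 genes, and 21 genes held less than 50% of the FPKM of gene and copies together. Rpl21 held 0.0821%, Rpl29 0.261%, Rpl35a 0.585%, Rpl26 0.769%, Rpl30 0.862%, Rps18 1.11% and Rps2 1.99%, and these 7 were the core genes below 100 FPKM. With the copies added, the lowest of the 77 core and stalk genes was Rpl22 at 125 FPKM in place of Rpl21 at 2.18 FPKM, and the SD of log2(FPKM + 1) across the 77 genes fell from 1.84 to 1.07. The windows below show how closely some of the copies match, with differing bases in capitals. Among pairs not shown, Rps18 and its copy Gm10260 differ at 4 of 456 aligned bases. Rps27a and Rps27a-ps2 differ at 1 of 467 aligned bases, Rpl30 and Gm12191 at 1 of 345, and Rpl7a and Rpl7a-ps11 at 2 of 798, of which 1 lies in the window. All positions are on GRCm38.
Rps27a, chr11:29545846-29548109, minus strand, coding bases 345 to 404: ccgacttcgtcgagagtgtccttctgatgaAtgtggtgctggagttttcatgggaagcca
Rps27a-ps2, chr9:83409660-83410126, plus strand: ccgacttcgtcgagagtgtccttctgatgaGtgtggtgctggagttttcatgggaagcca
Rpl30, chr15:34440505-34443640, minus strand, coding bases 66 to 125: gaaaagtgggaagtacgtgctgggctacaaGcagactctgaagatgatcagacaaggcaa
Gm12191, chr11:49678710-49679057, minus strand: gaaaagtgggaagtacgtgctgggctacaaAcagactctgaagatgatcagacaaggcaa
Rpl7a, chr2:26910764-26913318, plus strand, coding bases 156 to 215: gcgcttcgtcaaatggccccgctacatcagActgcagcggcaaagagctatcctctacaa
Rpl7a-ps11, chrX:166854211-166855011, plus strand: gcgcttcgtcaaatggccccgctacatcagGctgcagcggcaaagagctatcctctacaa

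The largest spread over the tumors belonged to such genes. Rpl17, of the large subunit, ran from 195 FPKM in control 1 to 1068 FPKM in swimming 2, and the groups overlapped from 208 to 778 FPKM, with swimming 2 above every control tumor. Its copies ran the other way, from 1820 FPKM in control 1 down to 686 FPKM in swimming 2. The sum of gene and copies stayed between 1599 and 2100 FPKM, and the SD over tumors fell from 0.80 for the gene to 0.11 for the sum on the log2 scale. For Rps2 the SDs were 0.37 and 0.071, and for Rpl30 0.46 and 0.13. Over the 73 genes with a copy above 1 FPKM the SD of the sum was lower than that of the gene in 32 and higher in 41.

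For Rps27a a copy was high where the gene was low. Rps27a-ps2 was highest in control 2 (487 FPKM) and swimming 4 (421 FPKM), the 2 tumors where Rps27a was lowest, and was at 42.4 and 48.4 FPKM in swimming 3 and swimming 2. Summed with its copies, Rps27a was at 511 to 677 FPKM in control tumors and 370 to 656 FPKM in swimming tumors, and the log2 difference turned from 0.43 to -0.34 (limma p = 0.0305; two-sided exact permutation p = 0.0541). For Rpl7a the sum was at 962 to 1292 FPKM in control tumors and 1109 to 1379 FPKM in swimming tumors, and the log2 difference turned from -0.23 to 0.088 (two-sided exact permutation p = 0.305). These sums were added after the values had been seen.

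Rps18 went the other way. The gene itself was steady, between 25.9 and 39.7 FPKM, and its SD was 0.19, but the sum with its copies had an SD of 0.69. The copy Gm10260 (chromosome 13, 97760072 to 97760632, annotated as protein-coding) was listed at 0 in control 6 and swimming 5 and at 761 FPKM in control 1, and lay between 2444 and 2960 FPKM in the other 9 tumors. A second copy, Gm11361, lay between 856 and 1414 FPKM in all 12. A value of 0 in such a file can be a failed estimate, so no difference was drawn from Gm10260 itself, though the summed copies include it.

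**Figure D5:**
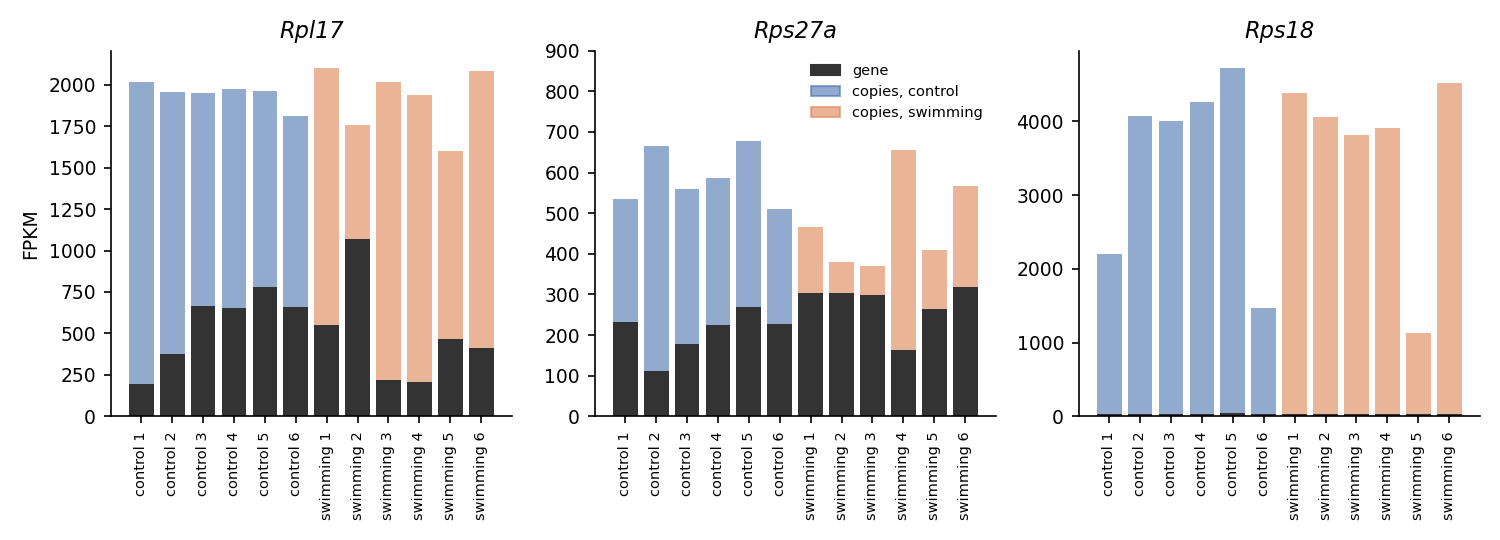
FPKM of Rpl17, Rps27a and Rps18 (black) with the summed FPKM of the listed copies matched to each stacked on top (blue in control, orange in swimming tumors). The stacked height is nearly level for Rpl17 (1599 to 2100 FPKM) while its black part runs from 195 to 1068 FPKM, and the Rps18 stack is low in control 1, control 6 and swimming 5.

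Few of the genes that make or serve the ribosome passed the test. Of ribosomal proteins whose genes have other names, Fau, a fusion with a ubiquitin-like protein, was at 1089 ± 94.8 and 1070 ± 132 FPKM and Rack1, a scaffold on the small subunit, at 334 ± 53.2 and 343 ± 47.6 FPKM, and neither passed. Of 17 translation factors and other genes with TOP tracts, none passed in either direction, with a median log2 difference of -0.039. Of the 12 genes of RNA polymerase I and its factors, which make ribosomal RNA, none passed, with a median of -0.041. Of 63 tested genes of ribosome assembly, 5 were lower at an unadjusted limma p below 0.05 against 2.46% of all genes tested, and none was higher, against 3.11%. Their median was -0.049, and 55 of the 63 had a difference below 0, against 48.3% of all genes tested. That direction was not counted with single tumors left out. The listed assembly genes summed highest in control 4 (2008 FPKM) and control 5 (1952 FPKM). The other control tumors, from 1716 to 1791 FPKM, lay within the swimming range of 1646 to 1792 FPKM.

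Those 5 act at several steps. Rrp12, needed for the export and maturation of the subunits, was at 16.2 ± 1.11 FPKM in control tumors and 14.3 ± 0.666 FPKM in swimming tumors, a log2 difference of -0.17 (SE 0.052; limma p = 0.00651, adjusted p = 0.889; two-sided exact permutation p = 0.00216). Utp4, of the small subunit processome, was at 26.5 ± 2.17 and 22.9 ± 1.82 FPKM. Nip7, which acts in the processing of ribosomal RNA, was at 24.8 ± 3.47 and 21.2 ± 1.04 FPKM. Nop2, a methyltransferase of ribosomal RNA, was at 65.0 ± 7.35 and 57.4 ± 2.57 FPKM, and Nob1, the nuclease that finishes the small subunit RNA, at 18.7 ± 1.46 and 16.9 ± 0.752 FPKM. All 6 swimming tumors lay below the control median in each of the 5, and none passed after adjustment. In Rrp12 the groups did not overlap, since the highest swimming tumor (14.90 FPKM) lay just below the lowest control tumor (14.93 FPKM). Groups lay apart in that direction in 0.0684% of all genes tested. Leaving out 1 tumor gave between 4 and 8 genes lower, with 4 without control 4, 8 without control 3 and 8 without swimming 1.

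Among 15 regulators of these mRNAs, Myc alone passed at an unadjusted limma p below 0.05. Of all genes tested, 5.56% passed in either direction. Myc, a transcription factor that drives genes of ribosomal proteins and ribosome assembly, lay between 26.6 and 41.0 FPKM in control tumors and between 20.6 and 30.5 FPKM in swimming tumors, with overlapping groups. The means were 33.7 ± 5.82 FPKM in control tumors and 26.1 ± 3.82 FPKM in swimming tumors, a log2 difference of -0.35 (SE 0.12; limma p = 0.0104, adjusted p = 0.889; two-sided exact permutation p = 0.0238). All 6 swimming tumors lay below the control median. None of the other regulators, which include mTOR, Larp1 and the S6 kinases, passed, and none of 9 tested genes of ribosome rescue and stress, which include Trp53 and Mdm2, did.

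The mitochondrial ribosome, built from another set of genes, served as a comparison that shares no gene with the cytosolic set. Of its 78 genes 4 were lower (Mrpl34, Mrps10, Mrps18b and Mrpl41), against 2.46% of all genes tested, and none was higher, against 3.11%. The median log2 difference was -0.028, with 52 of the 78 below 0 against 48.3% of all genes tested. Mrpl34 was at 42.6 ± 1.24 and 39.2 ± 1.29 FPKM, a log2 difference of -0.12 (SE 0.037; limma p = 0.00847, adjusted p = 0.889; two-sided exact permutation p = 0.00433). In swimming 5, where the cytosolic genes were lowest, the median deviation of the mitochondrial set was 0.035, against -0.24 for the cytosolic set. In control 5 it was 0.084 against 0.17, and in swimming 6 it was -0.0092 against 0.11.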

How the data were processed

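RNA was sequenced from 12 tumors, 6 per group, after depletion of ribosomal RNA. The authors deposited 1 FPKM value per gene and tumor, and the submitters' processing notes name HISAT2 2.0.5 and StringTie 1.3.3. Both hg38 and GRCm38 are named as builds; all gene identifiers in the tables were mouse, and 30578 of 30630 were found in GENCODE M21 (GRCm38), from which symbols and positions were taken. Whether counting used strand is not given in the sources used here.

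Genes that reached 0.1 FPKM in 6 or more of the tumors were fitted as log2(FPKM + 1) by limma 3.58.1 (R 4.3.3) with a mean-variance trend, swimming minus control, with p-values adjusted by Benjamini-Hochberg over all 19018 genes tested. A fold change on this scale understates the change of low genes. Single genes also had a two-sided exact permutation test, whose smallest possible p was 0.00216. The p-values set the difference between the groups against the spread between tumors. Copies were matched by blastn 2.17.0. The fit was tested on simulated data. Alternatives were pseudocounts of 0.1 and 0.01, no filter or a filter of 1 FPKM, quantile, equal-sum and trimmed mean scaling, a fit with tumors blocked by their number, tumors weighted by quality, no mean-variance trend, each tumor left out and, added after seeing the data, members summed with their copies.

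The members, the lists of other genes, the cell type markers and the tests were chosen with earlier results of these data known. Genes named were the stalk genes and Rpsa, the members with the 5 smallest p in each direction, the 3 highest, lowest and most variable, the paralogs with their core genes, Rps19bp1, and, in each other list, those with the smallest p; some genes that this rule named are not reported here. Of the members, 30 overlap an exon of another listed gene and 30 hold small nucleolar RNA genes, so their values may include reads of those. Numbers did not pair tumors: the deviations of same-numbered tumors had a mean correlation of -0.12.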

Additional observations from a re-analysis of the deposited data

Results flagged for a closer look

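A tumor was singled out where its gap to the nearest tumor of its group was large against the range of the group (Dixon's test). Of 64 groups examined 10 met this. Chance singles out about 1 in 20 groups of unrelated values, but the genes examined were named in part for their spread and moved together, so that share gives no chance count for them. In control 5, the highest of its group, it held for Rpl36 (2591 FPKM), Rpl36a (464 FPKM), Rplp1 (5800.2 FPKM), Rps27l (183 FPKM) and the summed members (14.8% of all FPKM). In swimming 6, also the highest, it held for Rpl39 (924.5 FPKM, the nearest tumor at 675 FPKM) and Rps27 (1219.6 FPKM, the nearest at 839 FPKM). Swimming 4 was singled out for a low Rps27a (164 FPKM, the nearest at 265 FPKM) and swimming 5 for the low sum of the copies (7.94% of all FPKM, the nearest at 9.43%). That sum includes the Rps18 copy Gm10260, listed at 0 in swimming 5 and between 2444 and 2885 FPKM in the other swimming tumors. Whether the flag holds without Gm10260 was not tested. Rpl3l was high in control 6 (0.506 FPKM, the nearest at 0.185 FPKM).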

How the results depend on the processing

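Over the alternatives other than leaving out a tumor, the median difference stayed between -0.052 and -0.038 and no member passed after adjustment. With the replicate number as a block 1 member was lower in place of 3, since Rpl7a and Rpsa no longer passed. The numbers share no animal, so this shows no weaker effect. Under some of these alternatives Rpl7l1 no longer passed. Without a filter 1 regulator gene, and with sample weights 1 ribosome assembly gene, was higher in place of 0. Differences that turned were Rpl10 (0.0066 with quantile normalization, 0.020 with sample weights), Rps3a1 (-0.0080 with quantile normalization), Rps19bp1 (-0.0018 with trimmed mean scaling) and, with copies summed, Rpl21 (-0.044), Rpl29 (0.025), Rpl30 (-0.0088), Rpl7a (0.088), Rps27a (-0.34) and Rps3a1 (-0.043); the cause was not tested.

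Leaving out each tumor in turn, the median difference ran from -0.085 to -0.0055 and the difference in summed share from -0.547 to -0.00888 percentage points. Members higher numbered 1 to 2 and lower 1 to 5, mitochondrial ribosome genes higher 0 to 1 and lower 3 to 5, polymerase I genes lower 0 to 1, assembly genes higher 0 to 1 and lower 4 to 8, and rescue and stress genes higher 0 to 1. Differences of these genes took both signs: Rpl10 (-0.040 to 0.048), Rpl21 (-0.018 to 0.19), Rpl22 (-0.018 to 0.13), Rpl30 (-0.044 to 0.34), Rpl36 (-0.038 to 0.062), Rpl36a (-0.096 to 0.017), Rpl36al (-0.056 to 0.0095), Rpl39 (-0.12 to 0.037), Rpl7 (-0.062 to 0.0046), Rps19bp1 (-0.026 to 0.036), Rps27 (-0.12 to 0.065), Rps3a1 (-0.0063 to 0.072), Fau (-0.070 to 0.028) and Rack1 (-0.0027 to 0.098). The tables give no counts, so no counting error can be set on a value.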

Other observations

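In a pair of lists of members, linked to an anemia and to p53, no gene passed the test. The mouse counterparts of 11 genes mutated in Diamond-Blackfan anemia, an inherited failure of red cell production, had differences between -0.24 and -0.012, with a median of -0.078. The 6 members whose proteins bind Mdm2, the ligase that degrades p53, had differences between -0.17 and -0.023, with a median of -0.065. All differences of both lists were below 0, in a set where 64 of 85 were, and the lists share genes. Trp53 itself was at 36.3 ± 3.65 and 38.0 ± 2.03 FPKM.

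The 85 genes lie on 19 chromosomes. Rpl10, Rpl36a, Rpl39 and Rps4x lie on the X chromosome, and their differences were -0.0093, -0.043, -0.030 and -0.089 on the log2 scale. Small nucleolar RNA genes, 58 in all, lie within 30 of the members, where such RNAs are cut from introns. Rps19bp1, which the naming rule took though it is no ribosomal protein, was at 30.7 ± 2.35 and 30.8 ± 2.41 FPKM, far below the median of the members and without a difference between the groups that exceeded its standard error (0.0021, SE 0.063).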
